A study of Mus musculus with 12 samples.

Results

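The constructs described here each carried a guide against Cd28 and none against Il2ra. They were chosen by the target names that the construct tables give: the set had to contain Cd28, could contain Tnfrsf4, Tnfrsf9 and Tnfrsf18, and could not contain Il2ra. This gave 48 of the 689 constructs analysed, in 8 combinations of 6 constructs: Cd28 alone, Cd28 with 1 of the 3 TNF receptor genes, with 2 of them, and with all 3. The rule uses no measured value, though the set was picked for description with earlier results of these data known.

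Cd28 is the main co-stimulatory receptor of T cells. It binds CD80 and CD86 on antigen-presenting cells, and its signal, added to that of the T cell receptor, supports interleukin-2 production, survival and expansion. Tnfrsf4 encodes OX40, Tnfrsf9 encodes 4-1BB and Tnfrsf18 encodes GITR, all members of the TNF receptor family that appear or increase on activated T cells and prolong their response. Il2ra encodes CD25, the alpha subunit through which activated T cells bind interleukin-2 tightly. CTLA4 competes with CD28 for the same ligands, and the phosphatase recruited by PD-1 acts on CD28 signalling. In the mouse gene table used for names, Cd28 and Ctla4 are direct neighbours in the order of protein-coding genes, as are Tnfrsf4 and Tnfrsf18.

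The screen was made in CD8+ T cells of C57BL/6 mice that had been stimulated ex vivo and transduced with lentivirus carrying 4 single guide RNAs (sgRNAs) in tandem, with mKate2 as the marker of transduction. The deposited data label it as the Hepa1-6 in vivo screen. The starting reference (SR) group was a frozen part of the transduced cells, in 3 replicates. The tumour-infiltrating (TIL) group was CD8+mKate2+ cells sorted from tumours 7 days after transfer of 10000000 cells, of which 5 to 10% carried mKate2, into mice at day 12 of tumour growth. Each of its 3 replicates pooled 3 to 4 mice with 20000 to 40000 sorted cells per tumour, and the pellets were mixed with Raji cells, a human B cell line, at 50 carrier cells per T cell. All groups carried the same library, and SR and TIL were amplified by different PCR schemes (direct in SR, in 2 steps in TIL), so amplification and condition cannot be told apart. Every replicate was read over 2 regions of the cassette, the first holding sgRNA 1 and sgRNA 2 and the second sgRNA 2 and sgRNA 3, which makes 12 libraries. No measure of editing or of CD28 protein was analysed here.

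The Cd28 arm rested on 10 different spacers, each 20 bases long, so the 48 constructs are not independent reagents. They are shown because every construct described below is identified by its Cd28 spacer, lettered A to J. The 12 capital letters mark the 3′ end of the spacer, which lies next to the PAM in a Cas9 target and tolerates mismatches least.
Cd28 spacer A: aaagcagtCGCCCCTGCTTG
Cd28 spacer B: aacatgacTCCCCGGAGGCC
Cd28 spacer C: atccccgtCGCAGTTGAACT
Cd28 spacer D: caagggcgTGAACAGCGACG
Cd28 spacer E: ctagcaagCCATAACAAAAC
Cd28 spacer F: gcttgtggTAGATAGCAACG
Cd28 spacer G: gtggaagtCTGTGTCGGGAA
Cd28 spacer H: tacgctgcAAAGTCTCTGGC
Cd28 spacer I: ttcctacaACCTTCTCGCAA
Cd28 spacer J: ttcttctcAGTTCAAGTAAC

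The spacers were used unevenly. Spacer E was in 8 constructs, J in 7, A, G, H and I in 5 each, B and F in 4, D in 3 and C in 2. Their GC content ran from 35% in J to 65% in B and D. The longest run of bases that any of them shared with another, on either strand, was 7, between C and J, so none was a shifted copy of another. The Cd28 spacer stood first in the cassette in 25 constructs, second in 19, at position 3 in 3 and at position 4 in 1. In that last construct it lay outside both amplified regions. The partner genes were targeted by 9 spacers for Tnfrsf4, 9 for Tnfrsf9 and 8 for Tnfrsf18, and 71 different non-targeting spacers filled the 72 empty places.

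Before transfer all 48 constructs were found in each SR replicate, at levels that differed widely. Abundance is given as CPM, the share of a construct in a library's scaled reads times 1000000, averaged over the regions. Mean SR abundance ran from 40.5 to 7916 CPM, with a median of 949 CPM, against 1136 CPM over all 689 constructs and 806 CPM over the 84 non-targeting constructs. The constructs together held between 7.08 and 7.74% of the reads of an SR library, and they were 6.97% of the constructs. SR replicates lay close together, with a median coefficient of variation of 12.9% over the 48 constructs. The most abundant was a Cd28+Tnfrsf4 construct with spacer J, at 6611, 8773 and 8362 CPM in SR 1, 2 and 3, and the scarcest was a Cd28+Tnfrsf9 construct with spacer I, at a mean of 40.5 ± 36.3 CPM (SD, n = 3), with 0 scaled reads in region 2 of SR 2.

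In the tumours the constructs fell into a silent majority and a few that were abundant. Of the 48, 33 exceeded 1000 scaled reads in no TIL library, and no value of any of the 48 lay between 100 and 1000. The highest value at or below 1000 was 99 scaled reads. In the TIL libraries 1 read was worth about 1.36 to 2.73 scaled reads, from the spacing of the low values, so a median of 0 to 3 scaled reads per construct was at most about 2 reads. Totals ran from 8288404 to 23012713 scaled reads in TIL and from 9963617 to 25646820 in SR.

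The test of each construct between TIL and SR followed that division exactly. The 33 constructs called lower (limma on log2(CPM + 1), Benjamini-Hochberg adjusted p from 1.29e-07 to 0.00325, n = 3 per group) were the 33 that exceeded 1000 scaled reads in no TIL library. They were also the 33 whose TIL values all lay below all SR values. Over the whole library 67.8% of constructs were called lower and 69.8% had such separate groups, so the Cd28 share of 68.8% was near the background in both. Changes of these 33 ran from -11.67 to -4.89 on the log2 scale, where the added 1 makes the fall of a construct without reads look smaller than it was. The remaining 15 had changes from -7.57 to -0.91 with standard errors of 3.30 to 4.74, and none passed (limma adjusted p from 0.125 to 0.839). All 48 changes were below 0, and 0 of the 48 were called higher, against 0.435% of the library, although 1 was when replicate 1 was left out and another when replicate 3 was left out (both described below). The median change of the 48 was -8.63, against -8.50 over all constructs.

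The 3 lowest changes belonged to constructs that started high. A Cd28+Tnfrsf18+Tnfrsf4 construct with spacer J changed by -11.67 ± 0.21 (SE, n = 3), from 4229 CPM in SR. A Cd28+Tnfrsf9 construct with spacer B changed by -11.66 ± 0.15 from 4283 CPM, and a Cd28+Tnfrsf18+Tnfrsf9 construct with spacer C by -11.41 ± 0.21 from 3468 CPM. Their TIL values were all under 1 CPM, from 0.066 to 0.638 CPM.

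Relative to the mean of the non-targeting constructs, 9 of the 48 were called lower and 2 higher (limma, adjusted p under 0.05), against 21% and 4.64% of the library. These calls moved with starting abundance. The 9 had SR means between 1636 and 4283 CPM, and the 2 were the scarcest constructs of the set, at 40.5 and 88.0 CPM. None of the 11 was detected in any TIL replicate, and their TIL values reached at most 1.74 CPM. On this scale a construct without reads in TIL can fall only as far as it started. The counts also moved with the setting. Without replicate 1 or without replicate 2 there were 0 calls in either direction, and without replicate 3 there were 15 lower and 3 higher. Each of these fits had 2 samples per group. With all replicates kept and a replicate block there were also 0 calls in either direction. The library's shares in these settings are not given, so the counts show only that the calls were unstable.

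Above 1000 scaled reads in both regions, which is called detected here, there were 5, 4 and 4 of the 48 constructs in TIL 1, 2 and 3. That is 10.4% (exact Clopper-Pearson 95% interval 3.47 to 22.7%), 8.33% (2.32 to 20.0%) and 8.33% (2.32 to 20.0%), against 11.3, 8.85 and 14.1% of the library. The intervals cover counting error over constructs only. Over the 3 replicates the share was 9.03 ± 1.20% for the Cd28 constructs and 6.35 ± 4.18% for the non-targeting constructs (SD, n = 3). In all, 9 of the 48 (18.8%) were detected at least once, against 26.3% of the library. Of these, 4 were detected in 2 replicates, 5 in 1 and 0 in all 3. TIL 1 and TIL 2 shared 2 of their 5 and 4 detected Cd28 constructs, TIL 1 and TIL 3 shared 1 of 5 and 4, and TIL 2 and TIL 3 shared 1 of 4 and 4.

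Detected constructs started higher than the others. The 9 had a median SR abundance of 1717 CPM and the 39 never detected had 863 CPM. Constructs above the library's SR median of 1136 CPM were detected in 9 of 57 cases (15.8%), and those at or below it in 4 of 87 cases (4.60%), where a case is 1 construct in 1 TIL replicate. The library as a whole showed 18.5 and 4.35% in the same divisions.

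The partner spacers of the detected constructs are shown here, because constructs that share a Cd28 spacer differ by them. Capitals again mark the 12 bases at the 3′ end.
Tnfrsf18, in the detected Cd28+Tnfrsf18 construct with spacer H: ttattcttGTCCAGGCAAGG
Tnfrsf18, in the detected Cd28+Tnfrsf18 construct with spacer D: gcagtgacCGTCACGACCTG
Tnfrsf4, in the abundant Cd28+Tnfrsf4 construct with spacer J: tgctgtcgTGAGTGCCAGCC
Tnfrsf4, in the scarcer Cd28+Tnfrsf4 construct with spacer J: accaggcaCCCAACCTCGGC
Tnfrsf9, in the detected Cd28+Tnfrsf9 construct with spacer G: ccaagtacCTTCTCCAGCAT
Tnfrsf18, in the detected Cd28+Tnfrsf18+Tnfrsf4 construct with spacer E: gagaagcaCTATGGGGGCAT
Tnfrsf4, in the same construct: tcccacagTTGTACCTTATC
Tnfrsf9, in the detected Cd28+Tnfrsf4+Tnfrsf9 construct with spacer I: accaggctGACAGTTATCAC
Tnfrsf4, in that construct and in the detected construct against all 4 genes: cagcttcaGGACCCCGATCC
Tnfrsf9, in the detected construct against all 4 genes: tgtgcttaAGACCGGGACCA
Tnfrsf18, in the detected construct against all 4 genes: gtcacaccTGAGTACCACTG

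Cd28 alone gave the single most abundant construct of a tumour replicate. The Cd28 construct with spacer I had 1136120 and 949833 scaled reads in regions 1 and 2 of TIL 2, which was 4.94 and 5.90% of those libraries and rank 1 of 689. Its guide stood first in the cassette, followed by the non-targeting spacers cgcgcgccGAGGGCTGTATT, agttgcttCGTTCGACCAGT and gaccgcgtAGCAATTCGTAT. It held 1924, 1510 and 1718 CPM in SR 1, 2 and 3, and 0.441, 54198 and 0 CPM in TIL 1, 2 and 3. In the authors' deposited table the log2 ratio of TIL over SR, as the mean of both regions, was -11.12, 5.10 and -11.37. The rise was thus seen in 1 of 3 replicates, and the change over all of them did not pass (-5.32 ± 4.74, SE, n = 3; limma adjusted p = 0.349).

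The other 5 constructs against Cd28 alone were not detected in both regions of any replicate. Spacer C gave 0 scaled reads in region 1 of TIL 3 and 147613 in region 2, while spacer B gave 141779 in region 1 and 79 in region 2 of the same replicate. For C the SR abundance was 2006, 1630 and 1691 CPM, and for B it was 516, 345 and 456 CPM. Both were under 1 CPM in TIL 1 and TIL 2. Spacers F, H and J stayed under 0.2 CPM in every TIL replicate, from SR means of 475, 988 and 984 CPM. Their changes were -8.76 ± 0.21, -9.90 ± 0.11 and -9.88 ± 0.11 on the log2 scale (SE, n = 3), all called lower.

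Cd28+Tnfrsf4 and Cd28+Tnfrsf18 held 8 of the 13 detections, 4 each of 18 cases. Both Cd28+Tnfrsf4 constructs with spacer J were detected in TIL 1 and TIL 2 and neither in TIL 3. The scarcer had 979, 847 and 921 CPM in SR, and 9053, 12206 and 0.044 CPM in TIL. Its deposited log2 ratios, in the authors' deposited table, were 2.95, 3.77 and -10.33, and its change over the 3 replicates was -0.91 ± 4.08 (SE, n = 3; limma adjusted p = 0.839), the highest of the 48. Left to replicates 1 and 2, the change was 3.53 ± 0.24 (SE; limma adjusted p = 0.00106), so that replicate 3 decided the call. That setting leaves out the only replicate in which the construct was silent. The share of the library called higher in it is not given. The abundant construct with spacer J, named above, had 12839, 6076 and 0.066 CPM in TIL 1, 2 and 3, near its SR abundance in the first 2. The authors' deposited table gives it log2 ratios of 0.73, -0.59 and -13.46. The other 4 Cd28+Tnfrsf4 constructs, with spacers B, E, F and I, were detected in no replicate. The construct with spacer E carried the same Tnfrsf4 spacer as the scarcer J construct, and had 0.070, 0 and 0 CPM in TIL from a mean of 220 CPM in SR.

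For Cd28+Tnfrsf18, replicates differed in another order. The construct with spacer D had 2457, 2445 and 2679 CPM in SR, and 0.325, 20119 and 32962 CPM in TIL. It was thus high in TIL 2 and TIL 3, where it stood at rank 15 and 5 of 689, and silent in TIL 1. Over the 3 replicates its change was -1.40 ± 4.37 (SE, n = 3; limma adjusted p = 0.775), and without replicate 1 it was 3.33 ± 0.32 (SE; limma adjusted p = 0.00505), a call for a rise. Here too the replicate left out was the only silent one, and the library's share of such calls is not given. The construct with spacer H was among the most abundant before transfer, at 5937, 7787 and 7720 CPM, and had 7584, 0.320 and 2451 CPM in TIL, above its start in TIL 1 and below it in the other replicates. With spacer J the values were 4656, 0.043 and 0.044 CPM, but the first came from region 2 alone (133770 scaled reads, against 0 in region 1). Spacers A, E and I were silent in all TIL replicates.

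Each of the other combinations had at most 1 detected construct. The Cd28+Tnfrsf9 construct with spacer G and the Tnfrsf9 spacer shown above had 0.290, 0.130 and 2185 CPM in TIL from a mean of 1657 CPM in SR. A second construct with spacer G, on another Tnfrsf9 spacer, had 89211 scaled reads in region 1 of TIL 3 and 0 in region 2. Among the constructs with 2 partners, Cd28+Tnfrsf18+Tnfrsf4 with spacer E had 743, 602 and 579 CPM in SR and 7972, 0.093 and 0 CPM in TIL. Cd28+Tnfrsf4+Tnfrsf9 with spacer I had 3764, 5373 and 4817 CPM in SR and 8338, 0.357 and 0.264 CPM in TIL. Both were thus present in TIL 1 alone. The detected construct against all 4 genes, with spacer H in the last position, had 0, 0.031 and 2819 CPM in TIL from a mean of 542 CPM in SR, and was thus present in TIL 3 alone. No Cd28+Tnfrsf18+Tnfrsf9 construct was detected in both regions, and 0 of 18 cases allows a share of up to 16.7% (3 counts over the cases).

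A signal in 1 region without the other was seen in 6 of the 144 cases. There were 2, 0 and 4 of the 48 constructs in TIL 1, 2 and 3, against 2.9, 1.74 and 4.93% of the library. Of the 19 cases with a signal in any region, these were 31.6%, and in the library as a whole 66 of 302, or 21.9%. In 2 of the 6 it was region 1 and in 4 region 2 that held the reads. The remaining examples were a Cd28+Tnfrsf18+Tnfrsf9 construct with spacer D, at 0 and 95173 scaled reads in the regions of TIL 1, and a Cd28+Tnfrsf4+Tnfrsf9 construct with spacer E, at 12 and 64191 in TIL 3. Averaging the regions therefore gave these 6 a high level that only 1 amplicon carried, and the cause was not tested.

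Next, a rise of 2-fold or more in each of the regions was counted. By the log2 ratios in the authors' deposited table, 2, 3 and 2 of the 48 rose so far in replicates 1, 2 and 3, against 8.71, 7.55 and 6.1% of the library (4.17, 6.25 and 4.17% of the 48). They came from 5 constructs, or 10.4%, against 18.3% of the library: Cd28 with spacer I, Cd28+Tnfrsf18 with D, the scarcer Cd28+Tnfrsf4 with J, Cd28+Tnfrsf18+Tnfrsf4 with E and the 4-gene construct with H. The Cd28+Tnfrsf18 and Cd28+Tnfrsf4 constructs reached it in 2 replicates and the other 3 in 1. The authors' deposited table gives log2 enrichments of 1.69 in replicate 1 for Cd28+Tnfrsf4 and Cd28+Tnfrsf18+Tnfrsf4, of 1.90 in replicate 2 for Cd28, Cd28+Tnfrsf18 and Cd28+Tnfrsf4, and of 2.20 in replicate 3 for Cd28+Tnfrsf18 and the 4-gene combination, each from 1 construct of 6. Other combinations with 1 such construct had the same value in that replicate, so these values were not particular to Cd28. Il2ra alone, for example, had 1.69, 1.90 and 2.20. The share of all combinations with such a value is not given.

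Detections were spread over 6 of the 10 Cd28 spacers. Spacer J gave 4 detections in 21 cases, H 3 in 15, D 2 in 9, I 2 in 15, E 1 in 24 and G 1 in 15, while A, B, C and F gave 0 in 15, 12, 6 and 12 cases. A count of 0 in 15 cases allows a share of up to 20.0% and in 6 cases of up to 50.0%, taking 3 counts over the cases as the limit. Cases of 1 construct in different replicates share their construct, so these limits cover counting error only. In the 42 constructs that target Il2ra besides Cd28, the same spacers A, B, C and F gave 3, 3, 2 and 1 detections in 15 cases each, and E gave 0 in 6. Constructs whose Cd28 guide stood first were detected in 8 of 75 cases and those where it stood second in 4 of 57.

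At the level of combinations the 6 constructs were averaged within a sample, and the mean of the non-targeting constructs of that sample was subtracted. Here and below, a value per replicate sets a TIL sample against the SR sample of the same number, though the numbers do not pair the samples. None of the 8 combinations passed (limma over all combinations of the library, adjusted p from 0.153 to 0.871), against 0.99% called higher and 0% called lower. The unadjusted p was under 0.05 for 1 of the 8 and for 19 of all combinations. Of the 8 values, 5 (62.5%) lay above the non-targeting mean, against 71.3% of all combinations, and the median was 0.47 on the log2 scale against 0.52.

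Cd28+Tnfrsf18 had the highest of the 8 values and was the only one of them above non-targeting constructs in 3 of 3 replicates. Combinations outside the 8 did so too, among them Cd28+Il2ra+Tnfrsf9 and Cd28+Il2ra+Tnfrsf18+Tnfrsf9. The values of Cd28+Tnfrsf18 were 2.45, 1.07 and 1.78 in replicates 1, 2 and 3, with a fitted value of 1.77 ± 0.53 (SE, n = 3; limma adjusted p = 0.153). From region 1 alone the fitted value was 1.10 (limma adjusted p = 0.404), and from region 2 alone 1.87 (limma adjusted p = 0.185). Its replicate 1 value includes spacer J, which had reads in region 2 alone. Cd28+Tnfrsf4 followed with 3.16, 3.57 and -2.13, a fitted value of 1.53 ± 1.42 (limma adjusted p = 0.639). Without replicate 3 it became 3.36 ± 0.42 and passed (limma adjusted p = 0.0162), as did 9.9% of all combinations in that setting. Cd28 alone had -0.96, 1.71 and 2.03, and a fitted value of 0.93 ± 0.86 (95% interval -1.08 to 2.93). It was 1.87, 0.54 and 0.37 without replicate 1, 2 and 3, and 0.39 and 0.43 from region 1 and region 2 alone, with no call in any of these settings. Only spacer I exceeded 1000 scaled reads in replicate 2, and only B and C, each in 1 region, in replicate 3. Cd28+Tnfrsf9 had -0.66, 0.03 and 2.22, a fitted value of 0.53 ± 0.78.

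Combinations with 2 or 3 partners lay lower, again without a call. Cd28+Tnfrsf4+Tnfrsf9 had 0.42 ± 0.57, with 1.31, -0.51 and 0.45 in the replicates. Below 0 were Cd28+Tnfrsf18+Tnfrsf4+Tnfrsf9 at -0.19 ± 0.50, Cd28+Tnfrsf18+Tnfrsf9 at -0.27 ± 0.72 and Cd28+Tnfrsf18+Tnfrsf4 at -1.17 ± 0.79 (SE, n = 3). The last stood at rank 99 from the top among all combinations, with 0.57, -1.37 and -2.70 in replicates 1, 2 and 3. It also started high: its SR level exceeded that of non-targeting constructs by 0.85, 1.03 and 1.05 on the log2 scale in SR 1, 2 and 3. So did Cd28+Tnfrsf18, the combination with the highest value, by 0.89, 0.92 and 0.93. In counts of detection, constructs of 1, 2, 3 and 4 targets reached 1 of 18, 9 of 54, 2 of 54 and 1 of 18 cases. The differences between these counts were not tested.

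These values depend on a few constructs in each combination. With the median over constructs in place of the mean, 7 of the 8 changed sign. In that setting 4 of the 8 passed, against 47.5% of all combinations. Cd28+Tnfrsf18+Tnfrsf4, the one that kept its sign, was lowest at -0.64 (limma adjusted p = 0.00291). Cd28+Tnfrsf18 stood at -0.54 (limma adjusted p = 0.0287), Cd28+Tnfrsf4+Tnfrsf9 at -0.26 (limma adjusted p = 0.0426) and Cd28+Tnfrsf18+Tnfrsf9 at 0.40 (limma adjusted p = 0.0440). Cd28 alone, at -0.28, did not pass (limma adjusted p = 0.0640). In every TIL replicate at most 2 of the 6 constructs of a combination exceeded 1000 scaled reads, so the median construct was always a silent one. Such a construct can fall only as far as it started. Median SR abundance was 1443 CPM for Cd28+Tnfrsf18+Tnfrsf4, 1400 CPM for Cd28+Tnfrsf18 and 976 CPM for Cd28+Tnfrsf4+Tnfrsf9. It was 644 CPM for Cd28+Tnfrsf18+Tnfrsf9 and 806 CPM over the non-targeting constructs. The 4 calls therefore cannot separate a change in tumours from starting abundance.

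Matched pairs asked what Cd28 adds to a given set of TNF receptor targets. A pair consists of combinations that differ by 1 gene, and 248 such pairs in the library were fitted together, of which 0.806% were called lower and 0% higher. Cd28 was added in 7 pairs, of which 0 passed (limma adjusted p from 0.173 to 0.852), 4 lay above 0 and 3 below, and the median was 0.45 on the log2 scale, against -0.02 over all pairs. Neighbouring pairs share a combination and are not independent. Of the 7, 3 had an unadjusted p under 0.05, against 43 of 248.

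Adding Cd28 to Tnfrsf18 gave 1.05, 1.68 and 1.64 in the replicates, a fitted difference of 1.46 (95% interval 0.38 to 2.53; limma adjusted p = 0.173). Adding it to Tnfrsf4 gave 2.83, 2.88 and -0.87, or 1.61 (-1.26 to 4.48; limma adjusted p = 0.541), and 2.85 without replicate 3, which passed (limma adjusted p = 0.0428), as did 4.84% of all pairs in that setting. With medians over constructs, Cd28 added to Tnfrsf4 gave 1.01 (limma adjusted p = 0.0293) and to Tnfrsf18 -0.70 (limma adjusted p = 0.0314). Added to Tnfrsf18+Tnfrsf4+Tnfrsf9 it gave 0.93 (limma adjusted p = 0.00506). These 3 passed, as did 34.3% of all pairs. The median construct of each Cd28 combination was silent in TIL, so these calls cannot separate a change in tumours from starting abundance. Median SR abundance was 1930 CPM for Tnfrsf4 and 1131 CPM for Cd28+Tnfrsf4. With means, the difference for Tnfrsf4+Tnfrsf9 was 2.02 (0.12 to 3.91) and above 0 in 3 of 3 replicates. In replicate 2, where it was 0.37, the TIL level relative to non-targeting constructs was lower with Cd28 (-0.375) than without (0.005). The SR 2 level was 0.14 with Cd28 and 0.89 without, so that replicate shows no higher level in tumours. Without Cd28, Tnfrsf4+Tnfrsf9 had the lowest value of all combinations, -1.60, with 0 detections in 18 cases. With Cd28 the value was 0.42. For Tnfrsf9 the difference was 0.45 (-2.25 to 3.15). The other 3 lay below 0, with -0.58 (-2.18 to 1.02) for Tnfrsf18+Tnfrsf4+Tnfrsf9, -0.98 (-2.48 to 0.51) for Tnfrsf18+Tnfrsf4 and -2.09 (-3.88 to -0.29) for Tnfrsf18+Tnfrsf9. The last was below 0 in 3 of 3 replicates, at -3.67, -1.82 and -0.77. In that pair the value was 1.81 without Cd28 and -0.27 with it. The intervals are wide, and that for Tnfrsf9 reaches beyond a 4-fold difference (2 on the log2 scale) in either direction.

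Of the 12 pairs that added a TNF receptor gene to a Cd28 combination, 8 lay below 0 and none passed (lowest limma adjusted p = 0.149). Over all pairs 126 of 248 lay below 0, and the 12 pairs share their combinations. The median was -0.50, from -2.93 for Tnfrsf4 added to Cd28+Tnfrsf18 to 0.97 for Tnfrsf9 added to Cd28+Tnfrsf18+Tnfrsf4. That lowest pair was below 0 in 3 of 3 replicates (-1.88, -2.45 and -4.48). By gene, the medians were -0.02 for Tnfrsf4, -0.76 for Tnfrsf9 and -0.71 for Tnfrsf18, over 4 pairs each. With medians over constructs the only calls among the 12 were above 0. Tnfrsf9 added to Cd28+Tnfrsf18 gave 0.94 (limma adjusted p = 0.00506), against -2.04 with means. Added to Cd28+Tnfrsf18+Tnfrsf4 it gave 0.69 (limma adjusted p = 0.0145). In that setting 34.3% of all pairs were called, and the median constructs were silent in TIL. Adding Il2ra, in 7 pairs, gave 4 values above 0 and 3 below with a median of 0.37, from -1.47 on Cd28+Tnfrsf4+Tnfrsf9 to 1.52 on Cd28+Tnfrsf18+Tnfrsf9 (lowest limma adjusted p = 0.217). The pair that adds Il2ra to Cd28+Tnfrsf4 split by replicate, with -4.97, -5.16 and 6.22. Without replicate 3 it was -5.07 ± 0.33 (SE) and passed (limma adjusted p = 0.0160), among the 12 of 248 pairs called in that setting.

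As a whole the 48 constructs were set against 4 other sets. Their mean change was -7.96 on the log2 scale, and -8.40 for the non-targeting constructs, a difference of 0.44 ± 0.35 (SD, n = 3) with 0.77, 0.49 and 0.07 in the replicates. The SDs in this comparison rest on setting TIL against SR by number. The exact two-sided permutation test over the 6 samples gave p = 0.10, the smallest this design allows, and 0.40 adjusted over the 4 comparisons. Against the 42 constructs for TNF receptor genes only, the difference was 0.34 ± 0.51 (exact permutation p = 0.40). Against the 48 with Il2ra and no Cd28 it was 0.27 ± 0.64 (exact permutation p = 0.50), and against the 42 with both genes -0.07 ± 0.90 (exact permutation p = 1). With 3 samples against 3, this exact permutation test cannot reach p = 0.05, so it could call none of the 4 differences. These sets were detected in 13 of 126, 10 of 144 and 14 of 126 cases, beside 13 of 144 for the Cd28 constructs. All comparisons use the same 6 samples, and with the median over constructs the difference from non-targeting constructs turned to -0.22.

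Genes that act beside Cd28 were also targeted alone, and their values ran from -1.50 for Zap70 to 2.62 for Pdcd1. Ctla4 had 0.67 ± 0.86 relative to non-targeting constructs (SE, n = 3), with 2 detections in 18 cases. Pdcd1 had 2.62 ± 1.34 and 6 of 18, and Il2ra 1.36 ± 0.53 and 3 of 18. In the T cell receptor signal, Lat had 0.75 ± 0.88, Cd247, the zeta chain, 0.58 ± 0.94, Cd3e 0.44 ± 0.74 and the kinase Zap70 -1.50 ± 0.49. The partners alone had 0.31 ± 0.61 for Tnfrsf18, 0.08 ± 0.54 for Tnfrsf9 and -0.08 ± 0.61 for Tnfrsf4. None of these 10 passed (limma adjusted p from 0.153 to 0.928) relative to non-targeting constructs, and differences between these genes and Cd28 were not tested.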

How the data were processed

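The values analysed are the authors' deposited scores: reads per construct that had been multiplied by a library factor, not given in the sources used here, and rounded, called scaled reads. Bowtie2 is the tool named in the submitters' processing notes, without its role or version. The deposited log2 ratios of TIL over SR were returned within 5e-05 as log2 with 10 added to each value. SR column names carry no replicate number, so SR libraries were numbered by the table that holds them.

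Each value was divided by its library's total to give CPM, regions of a replicate were averaged, and log2(CPM + 1) was tested with limma 3.58.1 in R 4.3.3, without a filter, over all 689 constructs, all combinations or 248 pairs, with Benjamini-Hochberg adjustment. The scripts were tested on simulated data. Because scores are scaled and rounded, no count model was used. Same-numbered SR and TIL samples did not deviate together (correlations 0.07, -0.08 and 0.09), so no block was used. The labels do not say that replicates are separate cultures, so p-values measure the spread between these samples.

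The members, lists and the detection threshold were chosen with earlier results of these data known. Named were all 8 combinations, the constructs against Cd28 alone, those detected or up 2-fold, the 3 highest and 3 lowest, and the pairs that add Cd28. Single-region cases were named after their values were seen. Of the non-targeting spacers, those of 1 construct are printed. Gene names came from the RefSeq table of GRCm38.p6, where all 15 targets matched, and the table was used for names and gene order, with no coordinates printed.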

Additional observations from a re-analysis of the deposited data

How the results depend on the processing

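With 15 of the 48 constructs over 1000 scaled reads in any TIL library, few constructs set each value. The cause of the shifts below was not tested unless stated. For counts of constructs called, the library's shares in these settings are not given, so the counts show only how far the calls moved. The count of constructs called lower against SR was 22 to 37 in the other settings and 34 to 39 with a replicate left out. Calls higher against SR were 0 to 1 with a replicate left out. Relative to non-targeting constructs, 9 lower and 2 higher became 14 and 4 with 10 added to the CPM, 18 and 4 with region 1, and 0 and 0 with SR of at least 500 CPM. That SR filter removed the 2 called higher but kept the 9 called lower, whose SR means were at least 1636 CPM. It also removed scarce non-targeting constructs, and so changed the mean that was subtracted. With 0.5 added or region 2, 0 were higher, and with the non-targeting median 11 were. With a replicate left out they were 0 to 15 lower and 0 to 3 higher, and with the replicate block 0 and 0. The numbers do not pair the samples, so the block is given only as an alternative setting, and it changed no other call.

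Combinations called were 0 to 1 and matched pairs called 0 to 2 with a replicate left out. With medians over constructs, 4 of the 8 combinations and 6 of the 26 pairs were called, beside 47.5% of all combinations and 34.3% of all pairs. Of the 8, 2 lay above 0 with medians and 3 with centring on all constructs. Medians turned Cd28 to -0.28, Cd28+Tnfrsf18 to -0.54, the 4-gene combination to 0.0454, Cd28+Tnfrsf18+Tnfrsf9 to 0.40, Cd28+Tnfrsf4 to -0.11, Cd28+Tnfrsf4+Tnfrsf9 to -0.26 and Cd28+Tnfrsf9 to -0.14. They turned Cd28 added to Tnfrsf18 to -0.70, to Tnfrsf18+Tnfrsf4 to 0.17, to all 3 to 0.93 and to Tnfrsf4+Tnfrsf9 to -0.0022. Of these, -0.70 and 0.93 passed (limma adjusted p = 0.0314 and 0.00506). All-construct centring turned Cd28+Tnfrsf4+Tnfrsf9 to -0.20 and Cd28+Tnfrsf9 to -0.0905. Region 1 turned Cd28+Tnfrsf4+Tnfrsf9 to -0.0579. The SR filter turned Cd28 added to Tnfrsf9 to -0.28. With a replicate left out, values ran from 0.37 to 1.87 for Cd28, from 1.42 to 2.11 for Cd28+Tnfrsf18, from 0.51 to 3.36 for Cd28+Tnfrsf4, from -2.04 to -0.40 for Cd28+Tnfrsf18+Tnfrsf4, from -0.48 to 0.0632 for the 4-gene combination, from -0.90 to 0.34 for Cd28+Tnfrsf18+Tnfrsf9, from -0.0317 to 0.88 for Cd28+Tnfrsf4+Tnfrsf9, from -0.31 to 1.12 for Cd28+Tnfrsf9, and from -0.81 to 1.10 for Cd28 added to Tnfrsf9.

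Against other sets, the difference from non-targeting constructs was 0.28 to 0.63 with a replicate left out and -0.22 with medians, that from TNF receptor constructs 0.09 to 0.59, that from Il2ra constructs -0.0192 to 0.61, and that from constructs with both genes -0.41 to 0.44, with 0.0294 for 10 added, 0.14 for region 1 and 0.38 for medians. Detections were 13, with 6 more in exactly 1 region (added after seeing the data), members detected at least once were 15 in either region, and cases up 2-fold in either region were 14.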
